A study of Mus musculus with 4 samples.

Results

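The genes described here encode the enzymes and carriers that burn fatty acids, from activation and binding of the acid to the last thiolase step, with the ketone-body enzyme Bdh1. They are given by a list of names, 36 gene symbols, all of which had a row among the 78028 rows of each count table. The rule of the list uses no measured value, but the list was chosen with earlier results of these data known. The data were RNA counts from 4 libraries that form a single group. Each library came from its own culture of E14TG2a, a male mouse embryonic stem cell line deficient in Hprt, taken through hepatic differentiation with a cocktail called A-HIC. The cells were labelled hepatocyte-like. No undifferentiated cells, liver or other control were analysed here, so every comparison is between genes or between libraries of the same treatment. The libraries are called 1 to 4 after their replicate numbers.

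Inside the cell, small binding proteins carry fatty acids, which are activated to acyl-CoA. The carnitine shuttle, gated by Cpt1, moves long chains into mitochondria, where each round of beta-oxidation shortens the chain by an acetyl unit and passes electrons to the respiratory chain through the electron transfer flavoprotein. Very long and branched chains are shortened in peroxisomes first. In the liver of a fasted animal much of the acetyl-CoA is turned into ketone bodies for other tissues, and the nuclear receptor Ppara raises many of these genes.

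The tables held 37.8, 40.2, 29.5 and 40.1 M counts in libraries 1 to 4. The label was checked against marker genes. Of 10 hepatocyte markers, 2 reached 1 TPM in all 4 libraries (a transcript level scaled for gene length and library size), Ttr and Hnf4a, and Cyp2e1 had 0 counts. Ttr and Hnf4a are also among the 10 visceral endoderm markers, so those 2 sums share them. The summed level of the 10 hepatocyte markers was 9.87, 55.5, 12.7 and 26.7 TPM in libraries 1 to 4. All 10 pluripotent-cell markers were expressed, with sums of 8134, 4527, 7435 and 5509 TPM, and all 10 parietal endoderm markers, with sums of 3122, 10073, 3788 and 7666 TPM. The defining hepatocyte markers thus went against the label, and the cells are called the A-HIC cultures below. The same 2 endoderm and pluripotency sums set libraries 1 and 3 apart from libraries 2 and 4. Sums were 142.6 to 326 TPM for visceral endoderm (9 of 10 expressed), 20.9 to 33.5 TPM for muscle (3 of 10), 7.21 to 12.01 TPM for adipocytes (2 of 10), 188 to 244 TPM for neurons (6 of 10) and 78.2 to 101 TPM for macrophages (5 of 10). Most of the neuron sum came from Tubb3 and Stmn2, at 106 and 92.2 TPM, while Rbfox3 and Dcx averaged 0.293 and 0.00762 TPM. Most of the macrophage sum came from Cd68 at 71.9 TPM, while Ptprc averaged 0.130 TPM. These 2 sums therefore do not show that such cells were present. In bulk RNA, fewer cells of a type and less RNA per cell cannot be told apart.

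Of the 36 genes, 33 were expressed, meaning at least 1 TPM in all 4 libraries, against 63.4% of 19939 protein-coding genes. The exceptions were Fabp1, Acox2 and Cpt1b. At 5 TPM the count was 31 genes, against 51.5% of protein-coding genes, and at 10 TPM 28 genes, against 44% of protein-coding genes. At 100 TPM it was 3 genes, Fabp3, Etfa and Acaa2, against 8.88%. The median of the genes' mean levels was 33.4 TPM, against 7.57 TPM over protein-coding genes. The genes together took up 2641, 2519, 2611 and 2499 TPM in libraries 1 to 4 (2568 ± 69.2, SD, n = 4). Fabp3 alone held 35.3% to 38.0% of that sum. These values use the length of all exons, and the share of Fabp3 and the genes at 100 TPM depend on that choice. By the length of the principal transcript Fabp3 averaged 632 TPM and Acaa2 74.1 TPM. Acadm, Hadh and Echs1 then averaged 142, 154 and 132 TPM.

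**Figure D1:**
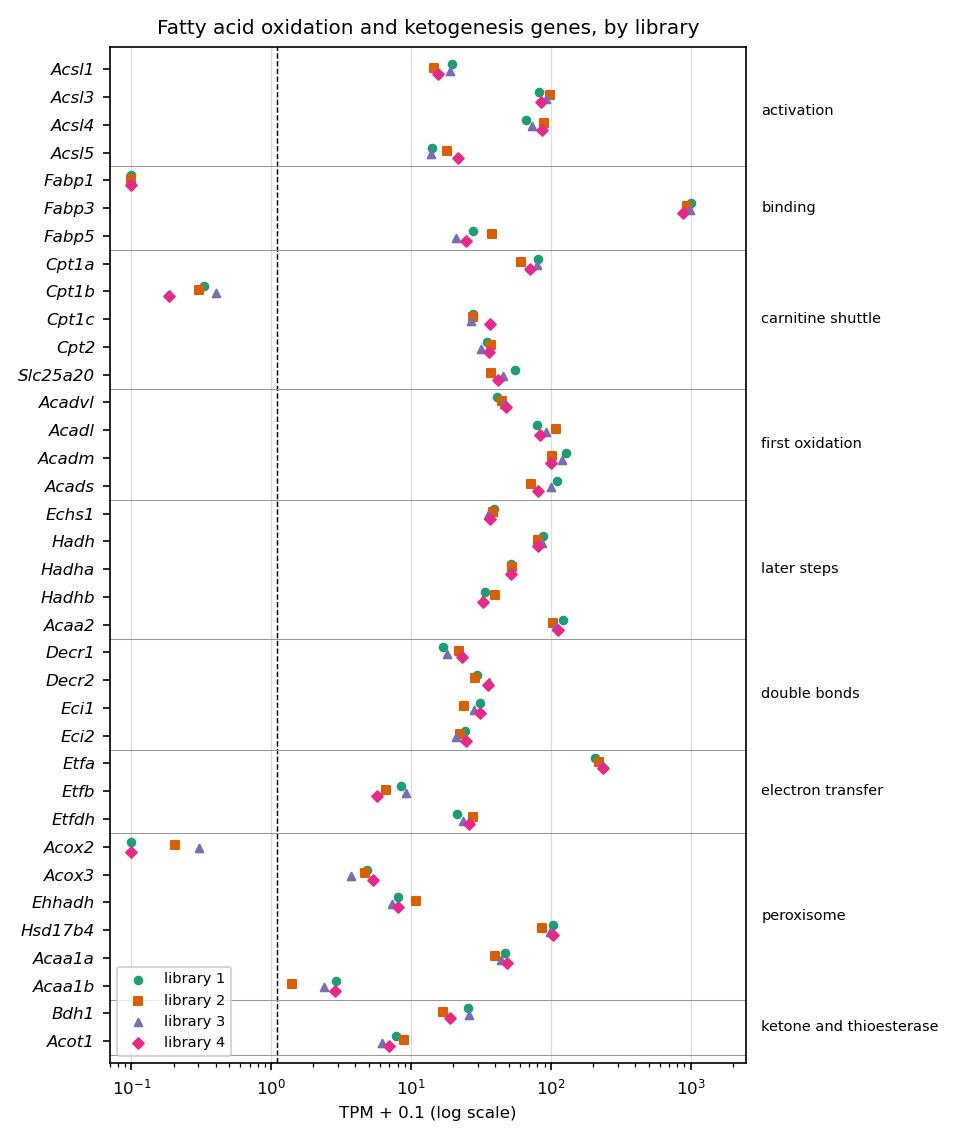
Level of each of the 36 genes in TPM (log axis), grouped by role, with a point for each of the 4 libraries and a dashed line at 1 TPM. Fabp3 lies alone at 882 to 1004 TPM, and Fabp1, Acox2 and Cpt1b lie below the line.

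Promoter sequences of 31 of the 36 genes were found in the RefSeq table (GRCm38.p6). The 250 bases before the start are shown for 5 genes at the ends of the range of levels or in close pairs, with every CpG in capitals. They are Fabp1, with no read in any library, at chr6:71199629-71199878 on the plus strand, and Fabp3, the highest of the 36, at chr4:130308488-130308737 on the plus strand. Acaa1b at chr9:119157094-119157343 on the minus strand and Acaa1a at chr9:119341044-119341293 on the plus strand are related thiolase genes with different levels. Hadhb at chr5:30155003-30155252 on the plus strand shares its promoter region with Hadha.
Fabp1: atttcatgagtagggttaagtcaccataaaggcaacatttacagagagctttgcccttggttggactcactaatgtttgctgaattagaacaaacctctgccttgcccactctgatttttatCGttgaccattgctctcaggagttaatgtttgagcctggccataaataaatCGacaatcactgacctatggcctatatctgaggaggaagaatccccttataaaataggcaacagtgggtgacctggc
Fabp3: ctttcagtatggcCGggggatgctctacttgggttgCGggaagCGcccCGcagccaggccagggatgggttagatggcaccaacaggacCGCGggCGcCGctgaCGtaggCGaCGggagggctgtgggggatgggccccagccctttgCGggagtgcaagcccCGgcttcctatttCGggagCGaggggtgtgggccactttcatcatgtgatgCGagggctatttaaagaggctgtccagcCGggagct
Acaa1b: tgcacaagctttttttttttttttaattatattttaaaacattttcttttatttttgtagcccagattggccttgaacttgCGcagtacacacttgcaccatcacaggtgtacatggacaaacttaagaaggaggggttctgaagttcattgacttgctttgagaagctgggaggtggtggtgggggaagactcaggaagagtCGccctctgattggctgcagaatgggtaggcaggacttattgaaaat
Acaa1a: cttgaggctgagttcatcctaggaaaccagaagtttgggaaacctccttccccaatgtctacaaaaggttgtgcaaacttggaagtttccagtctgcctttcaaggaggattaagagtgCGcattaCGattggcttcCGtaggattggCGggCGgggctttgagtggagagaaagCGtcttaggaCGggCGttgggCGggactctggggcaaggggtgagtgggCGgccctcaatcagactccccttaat
Hadhb: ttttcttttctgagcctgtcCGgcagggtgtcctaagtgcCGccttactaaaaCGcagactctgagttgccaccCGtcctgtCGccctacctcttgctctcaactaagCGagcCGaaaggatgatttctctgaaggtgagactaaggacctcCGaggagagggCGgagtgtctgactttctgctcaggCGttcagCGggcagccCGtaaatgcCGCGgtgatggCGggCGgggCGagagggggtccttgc

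The windows of Fabp1 and Acaa1b held 2 CpG each, against 17 in Fabp3, 10 in Acaa1a and 17 in Hadhb. Acox2, Acsl1 and Bdh1 have 2 listed starts each, and a gene with several starts was counted by its window with the most CpG, here and for all protein-coding genes. So counted, the median over the 31 genes was 12 CpG, with a range of 2 to 28, against a median of 13 over 15320 protein-coding genes. By that window, 5 of the 31 genes (16.1%) had 4 CpG or fewer, Fabp1, Acox2, Acaa1b, Acot1 and Cpt1c, against 25.9% of protein-coding genes. The other window of Acox2 held 1 CpG, against 3 in the one counted, and that of Acsl1 held 2, against 20 in the one counted. Over all protein-coding genes, 19.9% of those with 4 CpG or fewer were expressed and 81.2% of those with 5 or more. Of the 5 low-CpG genes here, 3 were expressed. Cpt1c was the highest of them, at 29.6 ± 4.79 TPM (SD, n = 4). The Hadha and Hadhb starts lie 272 bases apart on opposite strands, and their upstream windows share 228 bases.

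The letters of a direct repeat bound by PPAR receptors, 2 copies of AGGTCA with a single base between them, were searched on both strands. They were found for 0 of the 31 genes, against 0.0335% of 32851 windows. The oestrogen-related-receptor letters TCAAGGTCA were found for 0 of 31 genes, against 0.387% of all windows. The core AGGTCA, which lies within both, was found for 6 of 31 genes, Acadm, Acadvl, Cpt1a, Cpt1c, Echs1 and Fabp1, against 14.02% of all windows. A gene with several listed starts was counted if any of its windows matched, so these counts are per gene and the shares per window. A match is a description of letters in this window and says nothing of binding. The 2 longer motifs are so rare among all windows that finding 0 among 31 genes says nothing of absent sites.

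**Figure D2:**
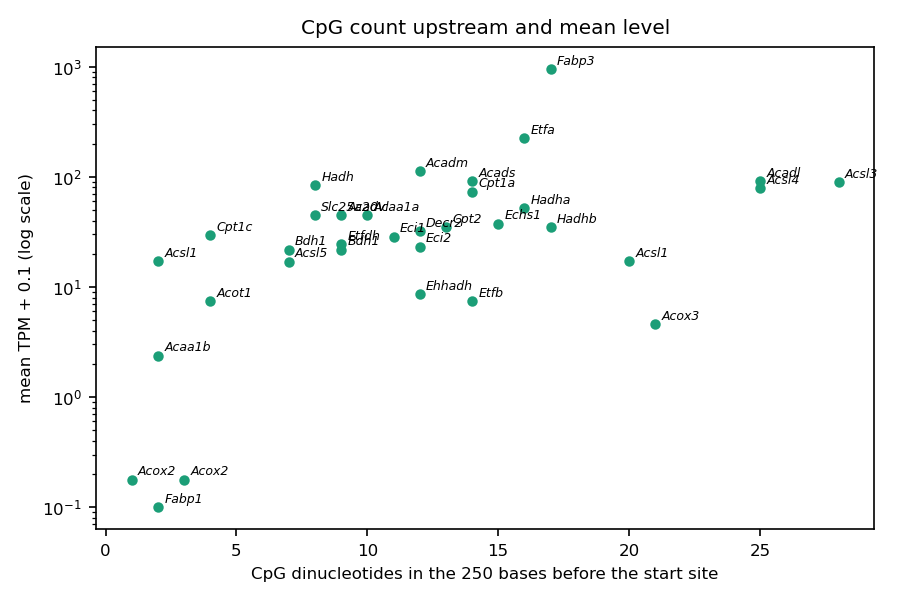
CpG in the 250 bases before the start (x axis, count) and mean level over 4 libraries (y axis, TPM + 0.1, log scale) for the 31 genes with a promoter window, with a point for each listed start. Fabp1, Acox2 and Acaa1b lie at the low end of both axes, while Cpt1c and Acot1, with 4 CpG each, lie higher, at 29.6 and 7.36 TPM.

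Fatty acids are activated by long-chain acyl-CoA synthetases. Acsl3, a synthetase of the endoplasmic reticulum and lipid droplets, had 81.8, 98.0, 92.6 and 84.9 TPM in libraries 1 to 4. Acsl4, which prefers arachidonic acid, had 65.8, 88.6, 72.6 and 85.8 TPM. Acsl1, the main synthetase of liver, fat and muscle, had 19.4, 14.5, 18.8 and 15.5 TPM, below Acsl3 and Acsl4 in every library. Acsl5, known from liver and intestine, had 14.1, 18.02, 13.7 and 21.5 TPM. The log2 ratio of Acsl1 to Acsl3 was -2.39 ± 0.28, that of Acsl1 to Acsl4 -2.19 ± 0.41 and that of Acsl5 to Acsl4 -2.22 ± 0.17 (SD, n = 4). Each had the same sign in 4 of 4 libraries, with a two-sided exact sign-flip permutation p of 0.125, the smallest that 4 libraries allow. With the length of the principal transcript in place of all exons, Acsl1 was at 30.4 TPM and its log2 ratios were -1.11 to Acsl3 and -0.80 to Acsl4. Acsl4 and Acsl5 were higher in libraries 2 and 4, and Acsl1 higher in libraries 1 and 3, the libraries that the endoderm and pluripotency sums also set apart. The part of those cells in these differences was not tested.

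Binding proteins carry the acid through the cytosol. Fabp3, the heart and muscle form, had 1004, 939, 983 and 882 TPM (952 ± 54.0, SD, n = 4) and ranked 82 among protein-coding genes by mean level. Fabp1, the liver form, had 0 counts in each library. Fabp5, the epidermal form, lay between them at 27.6, 37.8, 20.8 and 24.7 TPM, with library 2 the highest. A count of 3 would have been 0.520 to 0.688 TPM of Fabp1 in a library. Against that floor, set per library, Fabp3 was at least 1428-fold higher and Fabp5 at least 30.2-fold higher than Fabp1 in each library. If both ends of each read pair were counted, these bounds become 714-fold and 15.1-fold. The log2 ratio of Fabp3 to Fabp5 was 5.13 ± 0.38 (SD, n = 4; exact p = 0.125), and 3.28 by principal transcript length, where Fabp3 was at 632 and Fabp5 at 66.5 TPM. Opposite-strand genes cover 19.6% of the Fabp3 exon bases, among them Zcchc17, which averaged 2078 counts, and these libraries keep no strand. With all its counts divided by the length of the exon bases of its own, Fabp3 was at 1134 TPM. That level is too high if reads of the overlap were counted. A processed pseudogene, Fabp3-ps1, shares 21.7% of the 100-base windows of Fabp3, and its own row held 30 to 52 counts. Another, Gm6166, shares 2.2% of the windows of Fabp5. Its row averaged 606 counts, against 1017, 1371, 585 and 919 counts of Fabp5 in libraries 1 to 4. How reads that fit both were counted is not given in the sources used here, so the level of Fabp5 is less certain.

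Of the 5 carnitine shuttle genes, 4 were expressed, and the exception was the muscle form of the gate. Cpt1a, the liver form of the outer-membrane transferase, had 81.2, 61.1, 79.1 and 71.1 TPM (73.1 ± 9.11, SD, n = 4). Cpt1c, the form known from brain, which has little transferase activity, had 27.7, 27.5, 26.7 and 36.8 TPM, with library 4 above the rest. Cpt1b, the muscle form, had 8, 7, 8 and 3 counts, or 0.205 ± 0.0897 TPM. Its exon bases are 81.4% overlapped by a same-strand gene model, Gm44502, whose row held 0 counts, and whether reads of the overlap went uncounted was not tested. With all its counts divided by the length of the exon bases of its own, Cpt1b was at 1.06 TPM. That level is too high if reads of the overlap were counted. The log2 ratio of Cpt1a to Cpt1b was then 6.03, against 7.95 ± 0.45 over all exons (SD, n = 4; exact p = 0.125).

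Cpt1a stood above Cpt1c in each library, with a log2 ratio of 1.30 ± 0.30, and Cpt1c above Cpt1b, with 6.65 ± 0.69 (SD, n = 4; exact p = 0.125 each). Cpt2, the inner-membrane transferase, had 34.6, 37.4, 31.7 and 35.9 TPM, and its log2 ratio to Cpt1a was -1.06 ± 0.27 (exact p = 0.125), or -1.87 by principal transcript length. Slc25a20, the carnitine-acylcarnitine carrier, had 54.9, 37.3, 45.2 and 41.7 TPM, highest in library 1 and higher in libraries 1 and 3 than in 2 and 4. Around the shuttle, 7 of 8 measured genes of carnitine supply and transfer were expressed, led by Aldh9a1, an enzyme of carnitine synthesis, at 136 ± 6.24 TPM (SD, n = 4). Bbox1, the last enzyme of that synthesis, had 0, 0, 1 and 0 counts. The uptake carrier Slc22a5 was at 14.5 ± 2.25 TPM and the peroxisomal transferase Crot at 33.2 ± 3.09 TPM.

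The first oxidation step is done by acyl-CoA dehydrogenases of different chain length. Acadm, the medium-chain enzyme, had 128, 101, 120 and 99.7 TPM (112 ± 13.9, SD, n = 4). Acads, the short-chain enzyme, had 111, 72.5, 99.8 and 80.9 TPM and was below Acadm in every library, with a log2 ratio of -0.31 ± 0.12 (exact p = 0.125). Acadm and Acads were both higher in libraries 1 and 3 than in 2 and 4, and the part of the pluripotent and endoderm cells in that was not tested. Acadl, the long-chain enzyme, had 79.1, 108, 92.6 and 84.0 TPM. It was below Acadm in 3 of 4 libraries, with a log2 ratio of -0.30 ± 0.32 (exact p = 0.25). By principal transcript length that ratio was -1.17, with the same sign in 4 of 4 libraries (exact p = 0.125, the smallest that 4 libraries allow). Whether Acadl lay below Acadm in every library thus depends on the length used. With 4 libraries the test cannot settle whether these neighbours differ beyond their spread.

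Acadvl, the very-long-chain enzyme, had 41.3, 44.5, 45.8 and 47.5 TPM, and its log2 ratio to Acadm was -1.32 ± 0.24 (exact p = 0.125). Dvl2 lies on the opposite strand over 42.9% of its exon bases and averaged 3184 counts. These libraries keep no strand, so reads of the overlap cannot be told apart. With all its counts divided by the length of the exon bases of its own, Acadvl was at 75.1 TPM and the ratio was -0.51. That level is too high if reads of the overlap were counted. By principal transcript length the ratio was -1.94.

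The later steps include the steadiest gene of the set. Hadha, the alpha subunit of the trifunctional protein that handles long chains, had 51.4, 52.5, 51.5 and 51.5 TPM, a coefficient of variation of 0.985%. Hadhb, its beta subunit with the thiolase, had 33.5, 39.5, 32.5 and 32.4 TPM. Hadha was above Hadhb in each library, with a log2 ratio of 0.59 ± 0.12 (SD, n = 4; exact p = 0.125), but 0.02 by principal transcript length, where Hadhb was at 73.7 TPM. The order of the 2 subunits therefore depends on which exons are counted as the gene. A pseudogene row, Hadhb-ps, shares sequence with Hadhb and held 577, 700, 511 and 857 counts, which is 25.2% to 38.4% of the Hadhb counts.

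Echs1, the short-chain hydratase, had 38.9, 38.4, 35.6 and 36.7 TPM. Hadh, the short-chain hydroxyacyl dehydrogenase, had 88.0, 80.3, 85.6 and 80.3 TPM. Acaa2, the mitochondrial thiolase, had 122, 103, 109 and 113 TPM. By principal transcript length Echs1 was at 132, Hadh at 154 and Acaa2 at 74.1 TPM, so the order of these 3 is not fixed by the data. Summed over these 5 genes, the level was 319 ± 9.95 TPM (SD, n = 4).

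Unsaturated chains need extra enzymes to move or remove a double bond. The mitochondrial reductase Decr1 had 16.8, 21.9, 18.02 and 23.1 TPM. Its peroxisomal relative Decr2 had 29.3, 28.3, 36.0 and 35.4 TPM and was higher in 4 of 4 libraries, with a log2 ratio to Decr1 of 0.69 ± 0.27 (SD, n = 4; exact p = 0.125). The isomerases Eci1 and Eci2 were close, at 28.5 ± 3.39 and 23.1 ± 1.78 TPM. The log2 ratio of Eci2 to Eci1 was -0.30 ± 0.15 (exact p = 0.125) and turned to 0.46 by principal transcript length, so no order is given.

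Electrons from the dehydrogenases pass to the electron transfer flavoprotein, a dimer of Etfa and Etfb, and on to the quinone pool through Etfdh. Etfa had 206, 221, 232 and 235 TPM, second to Fabp3 under each of 4 choices of gene length. Etfb had 100, 77, 83 and 68 counts, or 7.37 ± 1.59 TPM (SD, n = 4). The log2 ratio of Etfa to Etfb was 4.93 ± 0.35 (exact p = 0.125). A same-strand gene model, Gm45233, covers 53.0% of the Etfb exon bases. With all its counts divided by the length of the exon bases of its own, Etfb was at 16.9 TPM and the ratio was 3.68. That level is too high if reads of the overlap were counted. Whether reads were lost to the overlap in the counting was not tested. Etfdh had 21.3, 27.7, 23.4 and 25.9 TPM, and its log2 ratio to Etfa was -3.19 ± 0.14 (exact p = 0.125), or -1.93 by principal transcript length.

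**Figure D3:**
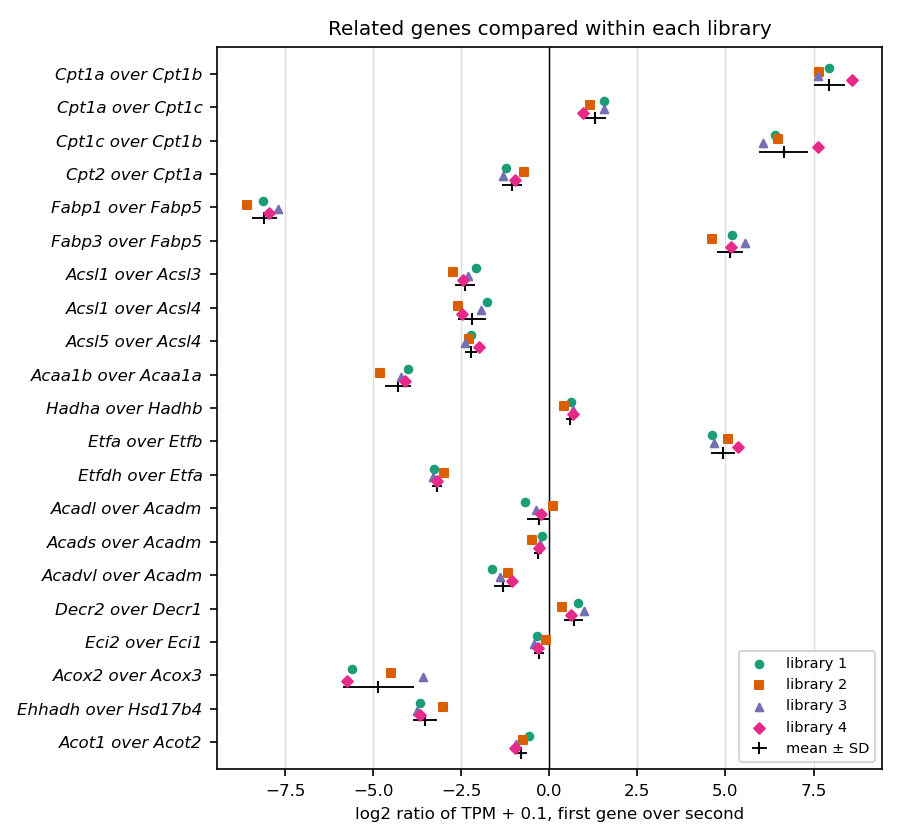
Log2 ratio of the level of the gene named first to that of the gene named after it (x axis) in the 21 pairs compared, with a point per library and black bars for mean ± SD over 4 libraries. In 20 pairs all 4 points lie on the same side of 0, and Acadl over Acadm crosses it.

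Of the 6 peroxisomal genes, 5 were expressed. Hsd17b4, the bifunctional enzyme for branched and very long chains, had 104, 86.5, 98.0 and 103 TPM. Ehhadh, the bifunctional enzyme that PPAR ligands raise in rodent liver, had 8.01, 10.7, 7.19 and 7.92 TPM. Ehhadh was below Hsd17b4 in each library, with a log2 ratio of -3.53 ± 0.35 (SD, n = 4; exact p = 0.125), and library 2 stood apart with Ehhadh high and Hsd17b4 low. Acox3, an oxidase of branched chains, had 4.75, 4.57, 3.60 and 5.20 TPM, and Acox2, which shortens bile acid precursors in liver, had 0, 4, 6 and 0 counts. Acox2 was below Acox3 in each library, with a log2 ratio of -4.86 ± 1.00 (exact p = 0.125). With 0 counts of Acox2 in libraries 1 and 4 the size of that ratio is set by the pseudocount of 0.1 TPM, and it was -2.36 with a pseudocount of 1 and -6.82 with 0.01.

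The thiolase Acaa1a had 46.8, 39.5, 43.7 and 48.1 TPM, and its copy Acaa1b, known for its high level in rodent liver, had 2.81, 1.30, 2.26 and 2.74 TPM. The log2 ratio of Acaa1b to Acaa1a was -4.28 ± 0.37 (SD, n = 4; exact p = 0.125). Acaa1b shares 19.3% of its 100-base windows with Acaa1a, and how reads with several alignments were counted is not given in the sources used here, so the low level of Acaa1b is uncertain. Beside these genes, 11 of 15 other genes of peroxisomal oxidation were expressed. Catalase, Cat, led at 182 ± 18.6 TPM, then Scp2, a carrier and thiolase, at 93.3 ± 1.94 TPM (SD, n = 4). The oxidases Hao1 and Hao2, known from liver and kidney, averaged 0.0631 and 0.0236 TPM. All 15 peroxisome assembly genes were expressed, among them the import receptors Pex5 at 91.9 TPM and Pex7 at 8.82 TPM, and Pex19, which carries membrane proteins, at 94.7 TPM.

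On the ketone side, Bdh1, which interconverts acetoacetate and beta-hydroxybutyrate, had 25.6, 16.9, 25.6 and 18.8 TPM, higher in libraries 1 and 3. Acat1, the mitochondrial thiolase that joins or splits acetoacetyl-CoA, had 61.8, 75.8, 65.7 and 65.7 TPM. Oxct1, the enzyme by which other tissues use ketone bodies and which liver cells lack, had 59.8, 76.4, 73.1 and 71.2 TPM. Slc16a1, a carrier of lactate and ketone bodies, had 184, 334, 224 and 247 TPM. Aacs, which activates acetoacetate for lipid synthesis in the cytosol, averaged 52.9 ± 6.42 TPM (SD, n = 4). Of the 12 genes listed for ketone synthesis, use and export, 8 were expressed, and Slc16a7 was the lowest at 0.0669 TPM.

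Acot1, a cytosolic thioesterase that returns acyl-CoA to free acid, had 7.75, 8.76, 6.05 and 6.88 TPM. Its log2 ratio to the mitochondrial Acot2 was -0.81 ± 0.18 (SD, n = 4; exact p = 0.125), but -0.03 by principal transcript length. The 2 genes share 9.3% of the 100-base windows of Acot1, so their order is uncertain. Of 20 other thioesterases and acyl-CoA synthetases, 10 were expressed, with Acot9 at 130 and Acot13 at 128 TPM the highest, and the liver and kidney synthetases Acsm1 and Acsm5 had 0 counts.

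**Figure D4:**
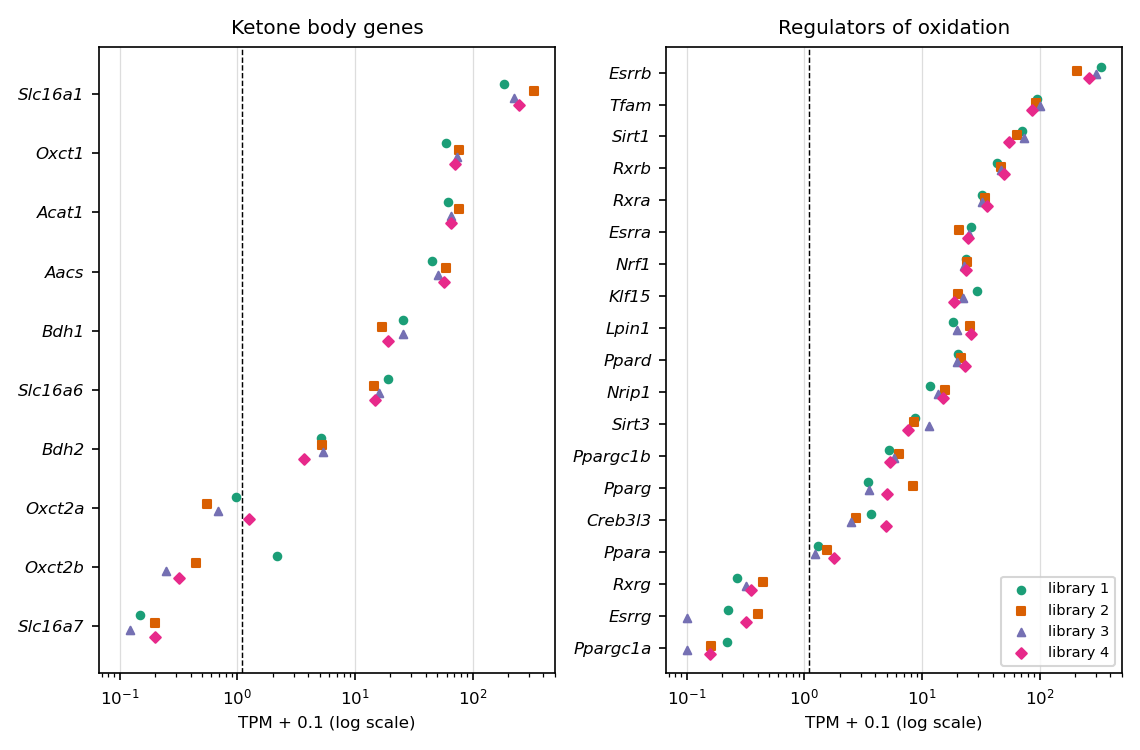
Level in TPM (log axis) of 10 ketone-body genes and of the transcriptional regulators of oxidation, with a point per library and a dashed line at 1 TPM. Slc16a1 lies highest among the ketone-body genes at 184 to 334 TPM and Oxct1 at 59.8 to 76.4 TPM, and Esrrb is the highest regulator at 208 to 333 TPM.

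Of 19 transcriptional regulators of oxidation, 16 were expressed. Esrrb, an oestrogen-related receptor known from the pluripotency network, was the highest at 333, 208, 300 and 262 TPM, followed by Tfam, a mitochondrial transcription factor, at 93.0 ± 5.61 TPM (SD, n = 4). Esrrb was higher in libraries 1 and 3, those with the higher pluripotency sums, of which Esrrb is itself 1 of the 10 markers. At the low end stood Ppargc1a, the fasting coactivator, with 8, 4, 0 and 4 counts, and Esrrg at 0.161 TPM. Named after their values were seen, Ppara had 1.21, 1.46, 1.12 and 1.68 TPM, Ppard averaged 20.99 TPM and Esrra 24.1 TPM. Of 16 known Ppara target genes outside the 36, 8 were expressed and 5 were not detected, among them Cyp4a14 and Cyp4a31, the fatty acid hydroxylases, at 0 counts. The highest was Plin2, a lipid droplet coat, at 77.1 TPM.

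Uptake and control genes were also counted. Of 14 fatty acid uptake and binding genes, 7 were expressed, led by Dbi, which binds acyl-CoA, at 181 ± 14.3 TPM, and Acbd3 at 61.9 ± 12.8 TPM (SD, n = 4). Fabp2, the intestinal form, and Fabp7, the brain form, averaged 0.127 and 0.321 TPM. All 11 genes of malonyl-CoA and the fuel switch were expressed, with Pdk1, a kinase that blocks pyruvate dehydrogenase, at 114 ± 14.9 TPM, and its relative Pdk4, which fasting raises, at 12.2, 6.45, 9.32 and 8.01 TPM in libraries 1 to 4. The AMP-kinase subunit Prkaa1 was at 75.2 TPM and Acacb, which makes the malonyl-CoA that blocks Cpt1, at 8.97 TPM. All 15 other mitochondrial acyl-CoA enzymes were expressed, from Acad12 at 2.97 TPM and Acad11 at 6.03 TPM to Mmut at 71.8 TPM and Hsd17b10 at 148 TPM. Of 14 genes of triglyceride breakdown and lipid droplets, 11 were expressed, with Plin3 highest at 150 TPM, and Plin4 and Cideb at 0.192 and 0.508 TPM. In all, 111 of 148 distinct pathway genes outside the 36 were expressed, and 10 had 3 counts or fewer in each library. These lists and their counts are descriptions, set against the 63.4% of protein-coding genes expressed.

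Each library was then compared with the other 3. A lone library has no spread of its own and is assumed to vary as the others do, so a gene without a call is not shown to be alike in all cultures. By the quasi-likelihood test of edgeR, with p-values adjusted by Benjamini-Hochberg over 17398 genes, 0 of the 33 genes that passed the low-count filter were called in any of the 4 comparisons, against 0% of all genes tested in each. At an unadjusted p under 0.05 the genes numbered 1, 2, 0 and 1 in libraries 1 to 4, against 5.32%, 7.38%, 1.57% and 1.55% of all genes. They were Slc25a20 in library 1, with a log2 fold change of 0.43 against the other 3, Cpt1a (-0.34) and Fabp5 (0.63) in library 2, and Cpt1c (0.43) in library 4. The lowest adjusted p of edgeR among the genes was 0.626. DESeq2 called 0 of them, against 0.0719%, 0.446%, 0.0102% and 0.0102% of genes. The median absolute log2 fold change of the 33 genes was 0.15, 0.23, 0.13 and 0.15 in libraries 1 to 4, against 0.22, 0.22, 0.17 and 0.16 over all genes.

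These counts depend on which libraries stand together. Without library 3, edgeR called 3 of the genes in library 1, Slc25a20 and Acads higher and Acsl4 lower, against 12.4% of all genes. Without library 4 it called 5 in library 2, Acsl4 and Fabp5 higher and Cpt1a, Acads and Bdh1 lower, against 14.4% of all genes. Without library 2 it called 2 in library 4, Cpt1c and Acsl5 higher, against 7.80% of all genes. Without library 1, 0 of the genes were called in library 3, against 7.35% of all genes. Among expressed genes, libraries 1 and 3 both lay above libraries 2 and 4 for Fabp3, Acsl1, Cpt1a, Slc25a20, Acadm, Acads, Hadh, Etfb and Bdh1. They both lay below for Acsl4, Acsl5, Cpt2, Hadha, Decr1 and Etfdh. The other expressed genes of the set showed neither order. For Hadha, libraries 3 and 4 hardly differed, at 51.505 and 51.513 TPM. These orders are a description without a test, and the share of all genes with such an order was not counted. The lists therefore cannot be read as a trait of this set of genes. The endoderm and pluripotency sums move with the same libraries, and their part in these calls and orders was not tested.

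The spread between cultures is given by the biological coefficient of variation per gene (BCV) from edgeR. Its median was 0.140 over the 33 genes and 0.186 over all 17398, and 26 of the 33 lay below the all-gene median. Hadha at 0.102 and Fabp3 at 0.107 were the steadiest, and Acaa1b at 0.314 and Etfb at 0.264 the most variable. Beside genes of like level the spread was not lower. Among 4838 genes with a mean of 22.0 to 87.8 CPM (counts scaled for library size only), the middle range of the 33 genes, the median was 0.135, against 0.140 for the 17 genes of the set in that range.

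**Figure D5:**
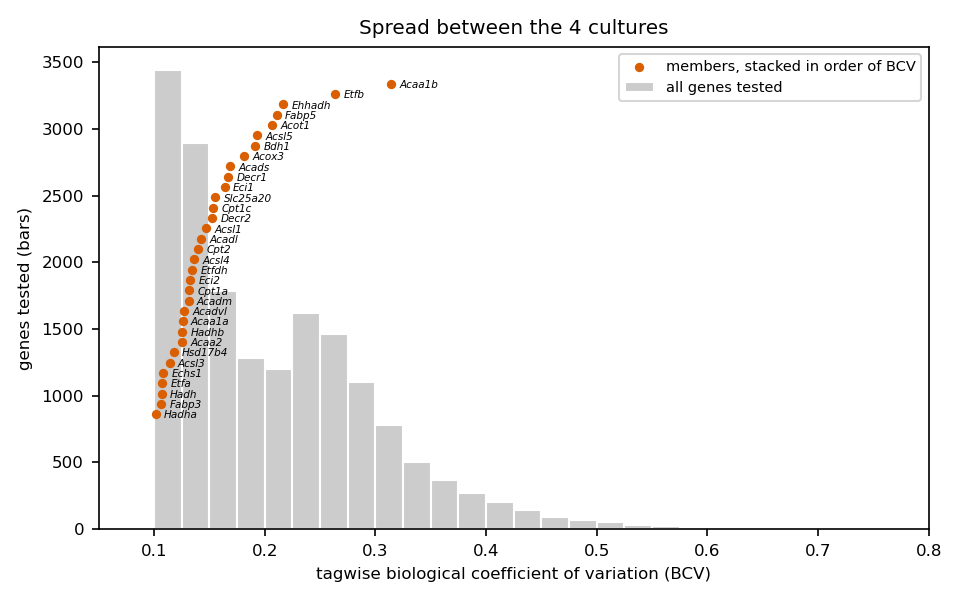
Biological coefficient of variation between the 4 cultures: bars count all 17398 tested genes and points mark the 33 tested genes of fatty acid oxidation. The 33 points run from 0.102 for Hadha to 0.314 for Acaa1b, with a median of 0.140 against 0.186 over all genes.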

How the data were processed

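Polyadenylated RNA was sequenced from both ends in libraries that keep no strand, per the labels' protocols. The deposited tables hold raw counts of reads per gene, 1 table per library. Per the submitters' processing notes, the tools were STAR and featureCounts and the build GRCm39 (mm39). For versions, annotation release and counting settings, nothing is given in the sources used here. Even numbers made up 60.0% to 62.6% of counts from 1 to 8, so both read ends may have been counted. The floors cover counting error only, while each SD is taken over the libraries. All 37 mitochondrial rows held 0.

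Lengths (all exons of a gene) and gene types came from GENCODE M21 (GRCm38). Of 78028 rows, 48819 were matched (48151 by symbol, 51 by ID, 617 by another symbol), 19939 of them protein-coding, with 98.8% to 99.0% of the counts. Coordinates of sequences are those of RefSeq on GRCm38.p6. TPM was computed from the deposited counts over the matched rows, and log2 ratios of pairs used TPM + 0.1. Pairs were tested by a two-sided exact sign-flip permutation over 4 libraries. A gene was not detected at 3 counts or fewer in each library. edgeR 4.0.16 (TMM, low-count filter, quasi-likelihood, Benjamini-Hochberg at 0.05) compared each library with the other 3, with DESeq2 1.42.0 as an alternative, in R 4.3.3. Other steps used Python 3.11.15. The edgeR script was tested on simulated data. Pairs of libraries differed by more than sampling noise, with a chi-square per degree of freedom of at least 12.

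The 36 genes, the 21 pairs and all lists were chosen with earlier results of these data known. Genes named are the 36, those of the pairs, and genes among the highest 2 and lowest 2 of each pathway list. Others (Slc22a5, Crot, Acat1, Aacs, Ppara, Ppard, Esrra, the markers and the genes or pseudogenes that overlap or share sequence) were chosen after their values were seen. The list gene Tmlhe was not matched and is not analysed here. The values of some other list genes are not reported here, though the list counts include them. The replicates are separate cultures of 1 cell line. Alternatives were another pseudocount, threshold, length, normalization and filter, halved counts, and each library left out. Lengths of the principal transcript and of exon bases of no other gene were added after seeing the data.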

Additional observations from a re-analysis of the deposited data

Results flagged for a closer look

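A single library lay far from the other 3 for 4 of 57 levels and ratios examined, and chance alone gives about 1 in 20. The measure is the gap to the nearest library as a share of the range over all 4. For Cpt1c it was 0.902, with library 4 high at 36.8 TPM. For Hadha it was 0.895, with library 2 high at 52.5 TPM, on a range of little more than 1 TPM. For Hadhb it was 0.846, with library 2 high at 39.5 TPM. For the log2 ratio of Ehhadh to Hsd17b4 it was 0.906, with library 2 high.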

How the results depend on the processing

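Of 210 values of the 21 pair ratios under the alternatives, 207 kept their direction. Eci2 over Eci1 reversed to 1.08 with CPM, which ignores length, and to 0.46 by principal transcript length, and Acot1 over Acot2 reversed to 0.016 with CPM. Among the 207, Hadha over Hadhb was only 0.022 and Acot1 over Acot2 only -0.033 by principal transcript length. A kept direction therefore does not mean a kept size. The number of genes expressed was 31 to 33 under every alternative run. Leaving out a library, the number of the genes called was 0 to 3 in library 1, 0 to 5 in library 2, 0 in library 3 and 0 to 2 in library 4, and the median coefficient of variation of the genes was 0.130 to 0.153, with 0.153 reached without library 4. No paired analysis was possible because the 4 libraries form a single group. Depth limits Cpt1b, Acox2 and Fabp1, each with few counts or 0.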
